A study of Sus scrofa with 6 samples.

Results

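The genes described here are regulators of pre-mRNA splicing, taken from the deposited expression table by name. A gene was included if its listed name began with HNRNP and a further letter, was SRSF followed by a number, or was ESRP1, ESRP2, PTBP1, PTBP2, RBFOX2, MBNL1, MBNL2, TRA2A, TRA2B, QKI, CELF1 or U2AF2. This gave 38 of the 18007 genes in the table: 16 hnRNP genes, 13 SR genes (TRA2A and TRA2B included), U2AF2, PTBP2, the 2 ESRP genes, and a group of 5 with RBFOX2, MBNL1, MBNL2, QKI and CELF1. PTBP1 was not listed under its name, and its identifier is described separately. Of the 38 genes, 34 had a mean of at least 0.5 FPKM over the 6 libraries and entered the test; ESRP1, ESRP2 and the entries named HNRNPAB and HNRNPF did not.

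Splicing removes introns from a primary transcript, and the choice of exons depends on proteins that bind the transcript beside the splice sites. SR proteins mostly bind exonic enhancers and help recruit the U2AF and U1 components, whereas many hnRNP proteins bind silencers or introns and hold back nearby splice sites, with the outcome depending on position. MBNL, RBFOX, CELF, QKI, PTB and ESRP proteins act on smaller groups of exons and differ in level between tissues: MBNL proteins are known for adult, differentiated exon choices and as a barrier to reprogramming, and ESRP proteins for exons used in epithelial cells.

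Gene expression was measured by RNA-seq in porcine embryonic fibroblasts (PEFs) and in the porcine induced pluripotent stem cells (piPSCs) derived from them, to find how expression differs after reprogramming. The 3 PEF lines, PEF5, PEF7 and PEF8, came from ear tips of fetuses collected at embryonic day 90 from a Meishan sow mated with a Large White boar (Longwhite in the sample labels). Each was transduced with lentivirus carrying the 4 factors Oct4, Sox2, Klf4 and cMyc (OSKM) under doxycycline control, and colonies were picked onto mouse embryonic fibroblast feeders to give piPSC5, piPSC7 and piPSC8. Every line was sequenced as 1 poly-A library, with no replicate of a line, so each group has n = 3 lines. The piPSCs depend on doxycycline and still carry the OSKM transgenes, and how many colonies founded each line was not given in the sources used here. In gene-level values the RNA of mouse feeders is not separable from that of the pig cells. The libraries held 17836510, 16713472 and 15146576 fragments in PEF5, PEF7 and PEF8 and 15050204, 11892011 and 11010629 in piPSC5, piPSC7 and piPSC8.

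The libraries were compared with their labels before the splicing regulators were described. The study describes the PEF lines as male. DDX3Y, a gene of chromosome Y, had 3439 fragments in PEF8 and 4207 in piPSC8 and 0 in the libraries of lines 5 and 7, where a count of 0 allows up to 3 fragments. Of the Y-linked genes EIF1AY, KDM5D and UTY, the libraries of lines 5 and 7 held 1 fragment, of UTY in piPSC5. Lines 5 and 7 therefore went against that description and line 8 did not. The fibroblast markers were lower in piPSCs for 13 of 15 genes (21.5% of all tested genes were lower at a limma adjusted p under 0.05), with summed levels of 7487, 9366 and 6258 FPKM in PEF5, PEF7 and PEF8 and 591, 461 and 347 FPKM in the piPSCs, and their most abundant gene was VIM, at a mean of 1008 FPKM over all libraries. Of 9 pluripotency markers listed, 3 were abundant enough to test, and SOX2, LIN28B and TFCP2L1 did not pass (limma adjusted p = 0.0626, 0.0667 and 0.0904). SOX2 and LIN28B had log2 differences of 1.31 and 1.80, and TFCP2L1 one of -0.93, from a mean of 1.1 FPKM in PEFs to 0 in every piPSC library. With 0.1 in place of 1 added to FPKM, and with voom, 2 of the 3 were called higher and 1 lower. After quantile normalization, and without piPSC7, piPSC8 or line 8, 1 was called higher. With every library rescaled to the same sum 1 was called lower. The summed levels of the 9 markers were 0.615, 0.401 and 2.85 FPKM in the PEFs and 5.57, 2.89 and 9.05 FPKM in the piPSCs, LIN28B was the most abundant, and NANOG, SALL4 and ESRRB had means of 0.0153, 0.015 and 0.00419 FPKM over the 6 libraries.

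The data went against calling the genes epithelial regulators in these cells. ESRP1 had 0, 0.0845 and 0.0104 FPKM in PEF5, PEF7 and PEF8 and 0.0417, 0.0396 and 0.0855 FPKM in piPSC5, piPSC7 and piPSC8, from at most 9 fragments in a library. ESRP2 had 0.0623, 0.037 and 0.0734 FPKM in the PEFs and 0.156, 0.0623 and 0.112 FPKM in the piPSCs. For both genes the groups overlapped and every library lay near 0. Without the filter on low values their log2 differences were 0.03 and 0.07 (limma adjusted p = 0.606 and 0.317). CDH1 and EPCAM, which define epithelial cells, had means of 0.0567 and 0.0301 FPKM over the 6 libraries. Of 20 epithelial markers listed, 7 could be tested, of which 2 were higher (GRHL1 and RAB25) and 2 lower (KRT7 and CLDN6) in piPSCs, against 30.3% and 21.5% of all tested genes, CLDN6 being called in 11 of 16 alternatives and not with the cell line as a replicate block (adjusted p = 0.0542). The summed epithelial markers were 22.6, 14.5 and 52.6 FPKM in the PEFs and 16.9, 54.1 and 15.7 FPKM in the piPSCs, with CLDN6 the most abundant at a mean of 12.2 FPKM. The genes are therefore called hnRNP, SR and other splicing regulators.

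**Figure D1:**
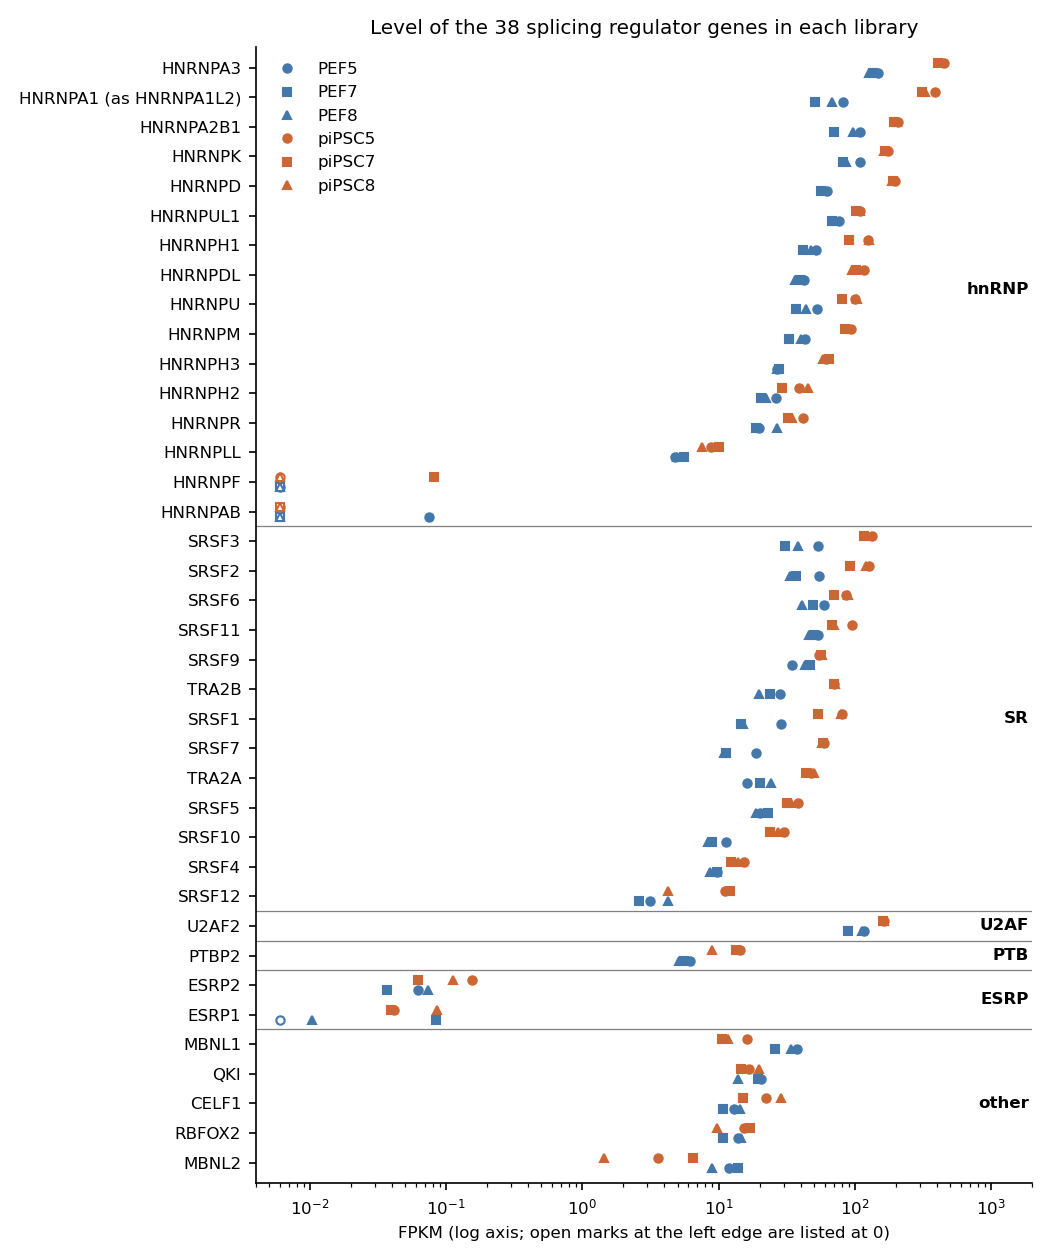
Level of each of the 38 genes in each library, in FPKM on a log axis, with PEFs in blue and piPSCs in orange, grouped by class; circles, squares and triangles stand for lines 5, 7 and 8, and open marks at the left for values listed at 0. The ESRP genes and the entries named HNRNPAB and HNRNPF lie below 0.2 FPKM in every library, and MBNL1 and MBNL2 are the tested genes whose piPSC libraries all lie below the PEF libraries.

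The splicing regulators were mostly higher in piPSCs. With limma on log2(FPKM + 1), 28 of the 34 tested genes (82.4%) were higher at an adjusted p under 0.05, against 30.3% of all 12428 tested genes, and 2 were lower, MBNL1 and MBNL2, against 21.5% of all tested genes. At least 2-fold changes were called for 17 higher genes (20.2% of all tested genes) and for the same 2 lower genes (16.7%). The log2 differences of the 28 higher genes ran from 0.52 to 2.36, with adjusted p from 0.000296 to 0.0432. The median log2 difference was 1.02 for the 34 genes and 0.20 for all tested genes, a distance of 0.82. In the plot of levels by library, 30 of the 34 genes had every piPSC library above every PEF library, which held for 37.3% of all tested genes, 2 had every piPSC library below (26.8%), and QKI and RBFOX2 overlapped. RNA was taken from whole cultures, so fewer cells of a type and less RNA per cell cannot be told apart.

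The size of these counts depended on how the libraries were scaled. Summed FPKM was 337074, 348236 and 348943 in PEF5, PEF7 and PEF8 and 420498, 437853 and 435678 in piPSC5, piPSC7 and piPSC8. In the deposited values the median log2 difference of all tested genes was 0.20, and its cause was not tested. When the libraries were rescaled so that the median gene-wise ratio between them was equal (rescaling to the median ratio), that median became -0.01, and the share of all calls that were higher went from 58.5% to 46.6%. With that scaling, 18 of the 34 genes were higher (22.8% of all tested genes), 10 of them at least 2-fold (15.2%), and MBNL1 and MBNL2 were lower (26.1%). With every library rescaled to the same sum, the all-gene median was -0.06 and 43.7% of calls were higher, and again 18 of the 34 genes were higher (21.1%), 10 at least 2-fold (16%), and 2 lower (27.2%). The 10 genes whose call ended under both scalings were HNRNPH2, HNRNPLL, HNRNPR, HNRNPUL1, SRSF4, SRSF5, SRSF6, SRSF11, SRSF12 and U2AF2. After quantile normalization 28 of the 34 genes were higher (3759 of all 12428 tested genes), with an all-gene median of 0.19. Voom on recovered fragments also gave 28 (3752 of all 12428 tested genes), with an all-gene median of 0.25. In both fits 17 of the 28 were at least 2-fold higher. RBFOX2 was the tested gene whose log2 difference turned from above to below 0 after rescaling to the median ratio or to equal sums.

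**Figure D2:**
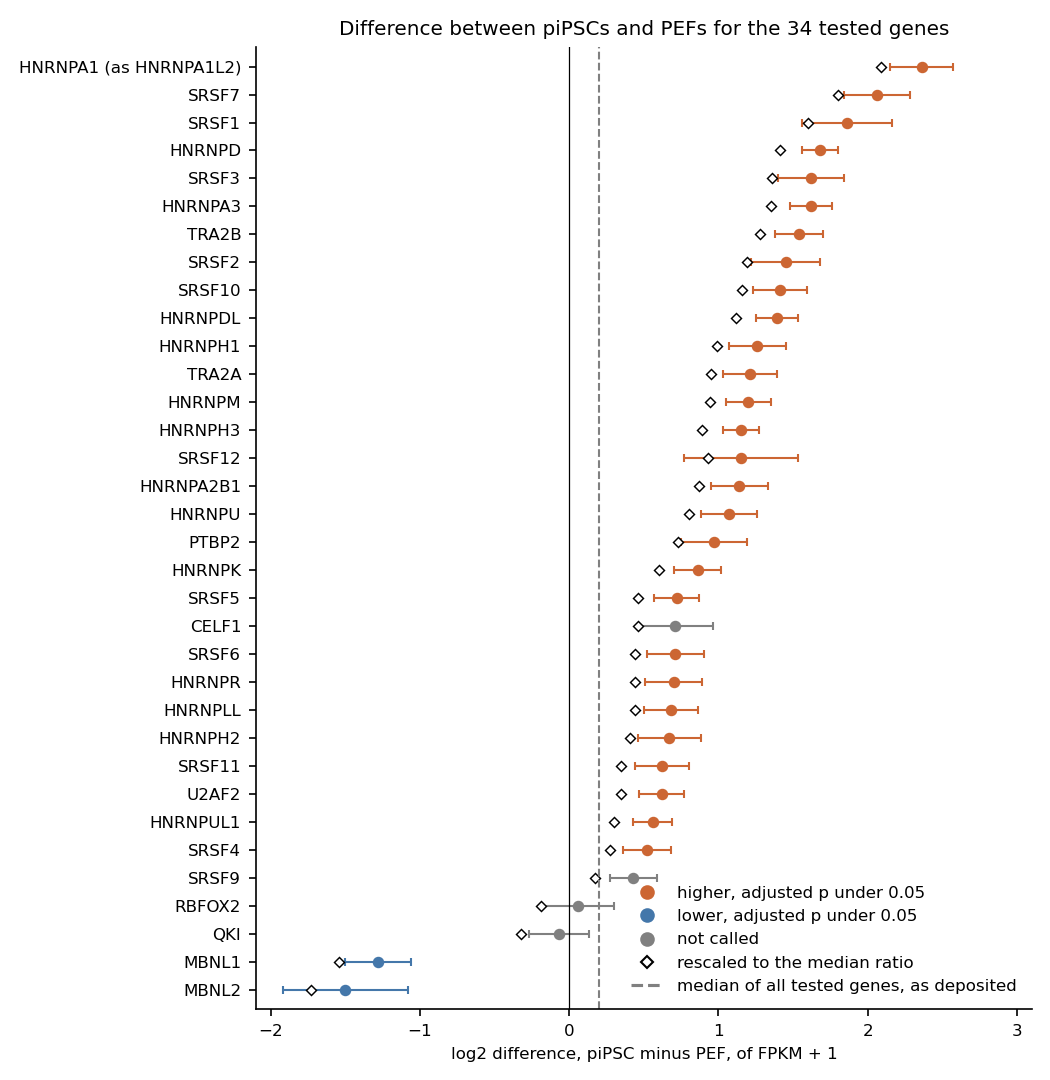
Log2 difference of FPKM + 1, piPSC minus PEF, for the 34 tested genes, with its standard error from limma (n = 3 against 3 libraries); orange marks were higher and blue marks lower at an adjusted p under 0.05, grey marks passed neither. Open diamonds give the same difference after rescaling to the median ratio and the dashed line the median of all tested genes, 0.20: the values run from -1.50 for MBNL2 to 2.36 for HNRNPA1, and RBFOX2 changes sign between the scalings.

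Among the hnRNP genes, all 14 tested were higher in the deposited values (30.3% of all tested genes), 9 of them at least 2-fold (20.2%), with a class median log2 difference of 1.15. Under both rescalings 10 of the 14 were called (22.8% and 21.1% of all tested genes), 4 of them at least 2-fold (15.2% and 16%), and all 14 differences stayed above 0. The entry with the largest difference of the 34 genes is listed as HNRNPA1L2 (ENSSSCG00000000288, chr5:19484613-19494938, Sscrofa11.1, plus strand), but its position is that of HNRNPA1 in the RefSeq annotation, the gene of an abundant protein that binds exonic and intronic silencers. It had 82.4, 50.7 and 67.7 FPKM in PEF5, PEF7 and PEF8 and 388, 311 and 330 FPKM in piPSC5, piPSC7 and piPSC8. Each piPSC library was several times above each PEF library, and the groups were far apart relative to their spread. The means were 66.9 ± 15.9 and 343 ± 40.4 FPKM (SD, n = 3), a ratio of 5.12, and the log2 difference was 2.36 (SE 0.21, limma adjusted p = 0.00045).

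HNRNPA3 (chr15:82958242-82964421, plus strand), a close relative of the A1 and A2/B1 proteins, had the highest mean FPKM of the 38 genes. Its level was 149, 136 and 128 FPKM in PEF5, PEF7 and PEF8 and 449, 409 and 419 FPKM in the piPSCs. The piPSC libraries were all well above the PEFs and close to each other, and the log2 difference was 1.62 (SE 0.14, adjusted p = 0.000416). HNRNPD (chr8:135844139-135862626, plus strand), also known as AUF1 and as a binder of AU-rich elements in mRNA decay, had the lowest adjusted p of the 34 genes. It measured 62.9, 56.8 and 58.1 FPKM in the PEFs and 197, 191 and 188 FPKM in the piPSCs, with little spread in either group. The log2 difference of HNRNPD was 1.68 (SE 0.12, adjusted p = 0.000296). Its paralog HNRNPDL ends 31107 bases before HNRNPD begins, on the same strand, and went from a mean of 39.3 ± 3.1 to 105 ± 10.3 FPKM (SD, n = 3), a log2 difference of 1.39.

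The other tested hnRNP genes had smaller differences. HNRNPA2B1, HNRNPH1, HNRNPH3, HNRNPM and HNRNPU rose by between 1.07 and 1.26 on the log2 scale, and HNRNPK, which binds C-rich stretches, by 0.86. HNRNPK went from 110, 82.6 and 85.9 FPKM in PEF5, PEF7 and PEF8 to 175, 167 and 164 FPKM in the piPSCs, with no overlap. HNRNPH2, HNRNPLL, HNRNPR and HNRNPUL1 had log2 differences from 0.56 to 0.70 in the deposited values and from 0.30 to 0.44 after rescaling to the median ratio, where their adjusted p ran from 0.0804 to 0.151 and none of the 4 was called. They were called in 9, 11, 11 and 13 of 16 alternatives in that order.

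As the hnRNP genes did not rise equally, the make-up of the 16 listed hnRNP genes differed between the groups. FPKM is per length, so levels of different genes can be set side by side within a library, and a share of the class does not depend on the scaling of the library. Both rest on the length used for each gene, which as fitted was 1325 bases for HNRNPA3 and 5624 for HNRNPA1. The 16 hnRNP genes summed to 859, 688 and 758 FPKM in PEF5, PEF7 and PEF8 and to 2112, 1868 and 1979 FPKM in the piPSCs, or 0.255%, 0.198% and 0.217% of all FPKM against 0.502%, 0.427% and 0.454%. HNRNPA1 (listed as HNRNPA1L2) supplied 9.59%, 7.37% and 8.93% of the hnRNP sum in the PEFs and 18.4%, 16.6% and 16.7% in the piPSCs. HNRNPK supplied 12.8%, 12% and 11.3% in the PEFs and 8.3%, 8.93% and 8.29% in the piPSCs, and HNRNPUL1 8.85%, 9.91% and 9.58% against 5.22%, 5.45% and 5.55%. The shares of HNRNPA1, HNRNPA3 and HNRNPD were higher in all 3 piPSC libraries than in any PEF library, those of 7 hnRNP genes were lower without overlap, and those of 6 overlapped. The 16 entries hold 2 pseudogenes, described below, and lack HNRNPAB, HNRNPC, HNRNPF, HNRNPL and HNRNPUL2, which are in the table without a name and summed to 280, 282 and 245 FPKM in the PEFs and 539, 563 and 504 FPKM in the piPSCs. With these in place of the pseudogenes the share of HNRNPA1 was 7.23%, 5.23% and 6.75% in the PEFs and 14.6%, 12.8% and 13.3% in the piPSCs. Of those 19 genes, the same 3 had a higher share in every piPSC library than in any PEF library, 7 a lower one and 9 overlapped, with HNRNPM and HNRNPU now overlapping and HNRNPF and HNRNPUL2 among the lower. The shares of a class add up to the whole, so the share of a gene can fall while its FPKM rises. HNRNPK and HNRNPUL1, with lower shares, had higher FPKM in every piPSC library than in any PEF library. No test was made of the shares, and counts of this kind were not made for all tested genes.

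**Figure D3:**
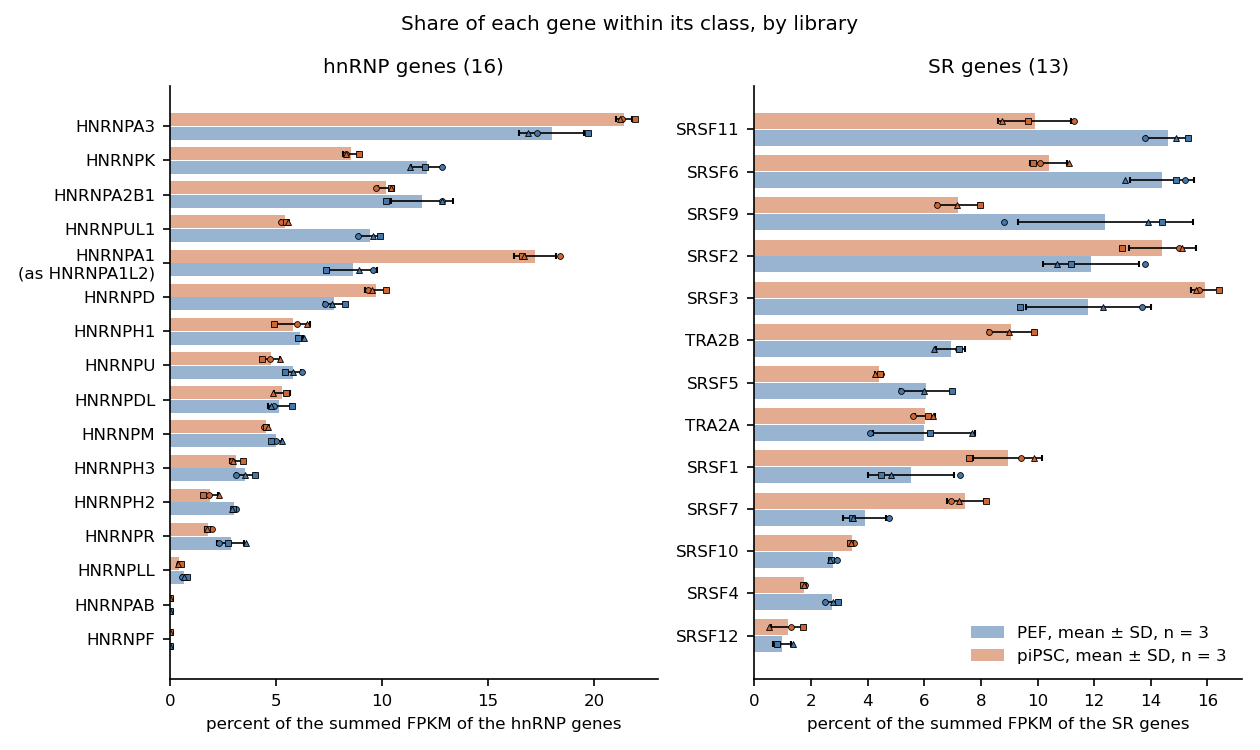
Share of each gene in the summed FPKM of the 16 hnRNP genes (left) and of the 13 SR genes (right), in percent; bars are means and error bars SDs over n = 3 libraries, and circles, squares and triangles give lines 5, 7 and 8. HNRNPA1 goes from a mean of 8.63% in PEFs to 17.2% in piPSCs, and SRSF7 from 3.9% to 7.45%, while HNRNPUL1, SRSF9 and SRSF11 take a smaller share in every piPSC library.

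Of the 13 SR genes, 12 were higher in the deposited values (30.3% of all tested genes), 8 of them at least 2-fold (20.2%), with a median log2 difference of 1.21. Under both rescalings 7 were called (22.8% and 21.1% of all tested genes), 6 at least 2-fold (15.2% and 16%), and all 13 differences stayed above 0. SRSF7 (chr3:101603705-101611290, plus strand), an SR protein with a zinc knuckle that also takes part in mRNA export, had the largest difference of the class. It had 18.7, 11.3 and 10.9 FPKM in PEF5, PEF7 and PEF8 and 59.1, 58.1 and 57.8 FPKM in piPSC5, piPSC7 and piPSC8. PEF5 stood above the other PEFs, and the piPSC libraries lay together far above the highest PEF. The log2 difference of SRSF7 was 2.06 (SE 0.22, limma adjusted p = 0.000796).

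SRSF1 (chr12:34275271-34282162, minus strand), a prototype of the SR proteins, had 28.5, 14.7 and 15.1 FPKM in PEF5, PEF7 and PEF8 and 80.5, 53.7 and 78.7 FPKM in the piPSCs. PEF5 was again the highest PEF and piPSC7 the lowest piPSC, without overlap, and the log2 difference was 1.86 (SE 0.30, adjusted p = 0.00308). SRSF3 (chr7:32289460-32302716, plus strand), a small SR protein that also couples splicing to export, was the most abundant SR gene. Its levels were 53.5, 30.7 and 38.4 FPKM in the PEFs and 134, 117 and 124 FPKM in the piPSCs. The piPSC libraries were close to each other and each was over 2 times the highest PEF, with a log2 difference of 1.62 (SE 0.22, adjusted p = 0.00161). TRA2B and TRA2A, the transformer-2 proteins that bind GAA-rich exonic enhancers, had log2 differences of 1.54 and 1.21, and SRSF2 and SRSF10 had 1.45 and 1.41.

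At the lower end of the class, SRSF4, SRSF5, SRSF6 and SRSF11 had log2 differences from 0.52 to 0.72 and lost their call under both rescalings. They were called in 6, 13, 10 and 10 of 16 alternatives in that order, and SRSF4 was not called with the cell line as a replicate block (adjusted p = 0.062). SRSF9 was the SR gene that did not pass the test in the deposited values. Its levels were 34.5, 47.2 and 43.4 FPKM in PEF5, PEF7 and PEF8 and 54.9, 56.5 and 57 FPKM in the piPSCs, so the groups did not overlap, and its log2 difference was 0.43 (SE 0.16, adjusted p = 0.0579). It passed in 2 of 16 alternatives, over which the adjusted p reached 0.557. SRSF12 was the least abundant SR gene and the least steady, with 3.13, 2.6 and 4.22 FPKM in the PEFs and 11.2, 12.2 and 4.28 FPKM in the piPSCs. In line 8 its level was nearly the same in both libraries, and its call (adjusted p = 0.0432) was kept in 6 of 16 alternatives, over which the adjusted p reached 0.131; with the cell line as a replicate block it was 0.08.

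The SR genes together went from 392, 328 and 313 FPKM in PEF5, PEF7 and PEF8 to 853, 710 and 799 FPKM in the piPSCs, or from 0.116%, 0.0942% and 0.0896% of all FPKM to 0.203%, 0.162% and 0.183%. Within the class, the shares of SRSF1, SRSF3, SRSF7, SRSF10 and TRA2B were higher in every piPSC library than in any PEF library. Those of SRSF4, SRSF5, SRSF6, SRSF9 and SRSF11 were lower, and those of SRSF2, SRSF12 and TRA2A overlapped. The genes with a lower share still had higher FPKM in every piPSC library than in any PEF library. SRSF7 supplied 4.77%, 3.44% and 3.49% of the SR sum in the PEFs and 6.93%, 8.19% and 7.23% in the piPSCs. SRSF9 supplied 8.8%, 14.4% and 13.9% in the PEFs and 6.44%, 7.96% and 7.14% in the piPSCs, PEF5 being the PEF nearest to the piPSCs.

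PEF5 stood apart from the other PEF lines in markers of proliferation. The 10 proliferation markers summed to 229, 49.3 and 75.8 FPKM in PEF5, PEF7 and PEF8 and to 502, 504 and 507 FPKM in the piPSCs, and 9 of 10 were higher in piPSCs (30.3% of all tested genes), with PCNA the most abundant at a mean of 70.1 FPKM and none of the 10 at 0. After rescaling to the median ratio 8 were higher, with equal sums 7 and without PEF5 10 (22.8%, 21.1% and 25.4% of all tested genes). Without PEF7, PEF8, piPSC5 or piPSC7 7 were higher. In these fits 2738 of 12409 (without piPSC5) to 3497 of 12330 (without piPSC7) of all tested genes were. Without line 8 6 were higher (24.9%). PEF5 was the highest PEF for 24 of the 34 splicing regulators and for 37% of all tested genes. The 24 included MBNL1, which was lower in piPSCs, and QKI, which was not called. The part of proliferation in the difference between the groups was not tested. Without PEF5, 24 of the 34 genes were higher (25.4% of all tested genes) and 17 at least 2-fold higher (20.1%), with a median log2 difference of 1.05 against 0.24 for all tested genes. MBNL1 was lower (17.1%). MBNL2 was not called, at a log2 difference of -1.47 (limma adjusted p = 0.0664) against -1.50 with all libraries. Without line 8, the line in which DDX3Y was measured, 21 were higher (24.9%) and 17 at least 2-fold higher (20.1%), and MBNL1 and MBNL2 were still lower (18.1%).

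U2AF2 (chr6:59774190-59789742, plus strand) encodes the large U2AF subunit, which binds the polypyrimidine tract ahead of the 3′ splice site. It had 117, 89.1 and 113 FPKM in PEF5, PEF7 and PEF8 and 163, 161 and 164 FPKM in the piPSCs. The piPSC libraries were nearly equal and all above the PEFs, with a log2 difference of 0.62 (SE 0.15, limma adjusted p = 0.0151). The call ended under both rescalings, at 0.35 and 0.30. It also ended without piPSC5 and without line 8, at 0.62 and 0.66 (limma adjusted p = 0.0546 and 0.0596). Over the 16 alternatives of U2AF2 the adjusted p reached 0.16.

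The polypyrimidine tract binding proteins repress exons beside CU-rich stretches, PTBP1 in most cell types and PTBP2 mainly in the nervous system. PTBP2 (chr4:120961381-121041911, minus strand) had 6.21, 5.53 and 5.14 FPKM in PEF5, PEF7 and PEF8 and 14.3, 13.5 and 8.9 FPKM in the piPSCs. All piPSC libraries were above all PEFs, with piPSC8 the lowest, and the log2 difference was 0.97 (SE 0.22, adjusted p = 0.0107), called in 16 of 16 alternatives. PTBP1 was found by the position of an unnamed identifier (ENSSSCG00000013421, chr2:77548191-77563134, minus strand), with 21.6, 13.1 and 13.4 FPKM in the PEFs and 42.3, 29.5 and 43.2 FPKM in the piPSCs. Its groups did not overlap, and its log2 difference was 1.22 (SE 0.25, adjusted p = 0.00794), called in 15 of 16 alternatives, with 0.0532 without line 8 as the highest adjusted p.

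MBNL1 and MBNL2 were the genes that moved the other way. MBNL1 (chr13:92491808-92697422, plus strand) had 37.9, 25.9 and 33.8 FPKM in PEF5, PEF7 and PEF8 and 16.2, 10.6 and 11.7 FPKM in piPSC5, piPSC7 and piPSC8. Every piPSC library was under every PEF library and each line fell by a similar factor, with log2 ratios of -1.18, -1.22 and -1.45 in lines 5, 7 and 8. The log2 difference was -1.28 (SE 0.22, limma adjusted p = 0.00404) in the deposited values and -1.54 after rescaling to the median ratio, and MBNL1 was called lower in 16 of 16 alternatives. MBNL2 (chr11:66481828-66641653, plus strand) had 11.9, 14 and 8.94 FPKM in the PEFs and 3.62, 6.47 and 1.45 FPKM in the piPSCs. Line 8 was lowest and line 7 highest in both groups, and the groups did not overlap. The log2 difference of MBNL2 was -1.50 (SE 0.42, adjusted p = 0.0226), called in 13 of 16 alternatives. Without PEF5, PEF7 or piPSC5 it was -1.47, -1.37 and -1.54 (limma adjusted p = 0.0664, 0.075 and 0.0589).

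QKI, RBFOX2 and CELF1, which like the MBNL proteins act in muscle and brain, did not pass the test. QKI (chr1:4732578-4883870, minus strand) had 20.4, 19.5 and 13.9 FPKM in PEF5, PEF7 and PEF8 and 16.6, 14.6 and 19.7 FPKM in the piPSCs. Lines 5 and 7 were lower and line 8 was higher in the piPSC, and the groups overlapped (log2 difference -0.07, SE 0.20, adjusted p = 0.799). RBFOX2 (chr5:11633546-11905324, plus strand) had 13.8, 10.8 and 14.7 FPKM in the PEFs and 15.3, 17 and 9.73 FPKM in the piPSCs. Here line 8 was the lower one in the piPSC, and the log2 difference of RBFOX2 was 0.06 (SE 0.24, adjusted p = 0.836) in the deposited values and -0.19 after rescaling to the median ratio. CELF1 (chr2:15066520-15154390, plus strand), known as an antagonist of MBNL proteins on many exons, had 13, 10.7 and 14.4 FPKM in the PEFs and 22.3, 15.2 and 28.5 FPKM in the piPSCs. Each piPSC library was above each PEF library, and the log2 difference was 0.71 (SE 0.25, adjusted p = 0.0526). CELF1 passed the test in 3 of 16 alternatives, over which the adjusted p reached 0.227; with the cell line as a replicate block it was 0.0294.

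**Figure D4:**
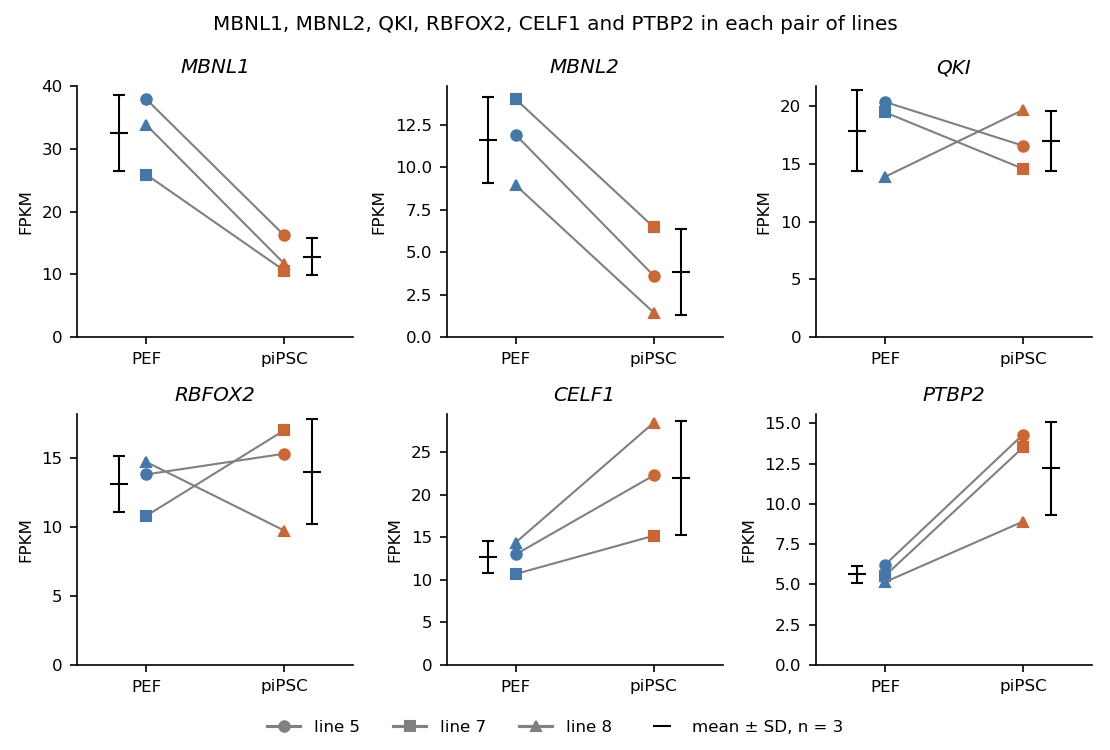
FPKM of MBNL1, MBNL2, QKI, RBFOX2, CELF1 and PTBP2 in each PEF line and in the piPSC line made from it, joined by a grey line, with mean and SD of n = 3 libraries beside each group; every axis starts at 0. MBNL1 and MBNL2 fall and PTBP2 rises in all 3 lines, whereas QKI and RBFOX2 move in opposite directions among the lines; CELF1 is higher in all 3 lines but was not called.

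The 5 genes of this group summed to 97.1, 80.9 and 85.7 FPKM in PEF5, PEF7 and PEF8 and to 74, 63.7 and 71.1 FPKM in the piPSCs. MBNL1 supplied 39.1%, 32.1% and 39.4% of that sum in the PEFs and 21.9%, 16.6% and 16.5% in the piPSCs, and CELF1 13.4%, 13.2% and 16.8% against 30.1%, 23.8% and 40%. In every PEF library MBNL1 was the most abundant of the 5 genes. In piPSC5 and piPSC8 it was CELF1, and in piPSC7 it was RBFOX2.

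Each piPSC line was also set against the PEF line it came from, by the log2 ratio of FPKM + 1. In line 5, 17 of the 34 genes were at least 2-fold higher (21.9% of all tested genes) and 2 at least 2-fold lower (18.6%). Line 7 had 19 higher (24.9%) and 2 lower (17.2%), and line 8 had 18 higher (23.8%) and 2 lower (23.8%). The median log2 ratio of the 34 genes was 0.96, 1.08 and 1.02 in lines 5, 7 and 8, while that of all tested genes was 0.21, 0.24 and 0.08. Of the 34 genes, 30 were higher in all 3 pairs (42.9% of all tested genes), 2 were lower in all 3 pairs (31.6%), and QKI and RBFOX2 were mixed. With the cell line as a replicate block in limma, 27 of the 34 genes were higher (28% of all tested genes), 16 of them at least 2-fold (19.8%), and 2 were lower (19.7%), both at least 2-fold (16.3%). The highest ratio was that of HNRNPA1 in lines 5 and 7, at 2.22 and 2.59, and that of SRSF1 in line 8, at 2.31. None of the 34 genes changed at least 2-fold one way in a line and at least 2-fold the other way in another.

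The 38 genes lie on 18 chromosomes, with 7 on chromosome 6 and no more than 3 on any other. In RefSeq, 35 of them carry the same symbol at that position. The entries named HNRNPAB (chr7:61098946-61108699) and HNRNPF (chrX:83328743-83333531) lie on RefSeq pseudogenes and had at most 0.0808 FPKM in any library. Identifiers without a name at the positions of the genes HNRNPAB and HNRNPF had measurable levels. That of HNRNPAB (ENSSSCG00000014031) had 39.7, 50.4 and 25.9 FPKM in PEF5, PEF7 and PEF8 and 121, 151 and 129 FPKM in the piPSCs, with no overlap and a log2 difference of 1.80 (SE 0.25, limma adjusted p = 0.00194). That of HNRNPF (ENSSSCG00000010203) had 141, 142 and 131 FPKM in the PEFs and 274, 274 and 237 FPKM in the piPSCs, again with no overlap, and a log2 difference of 0.92 (SE 0.14, adjusted p = 0.00242). HNRNPC was found in the same way and differed by 1.18, called in 16 of 16 alternatives, whereas HNRNPUL2 differed by -0.02 (adjusted p = 0.925). HNRNPL, at means of 0.9 FPKM in PEFs and 1.97 FPKM in piPSCs, differed by 0.65 (adjusted p = 0.0453) and was called in 4 of 16 alternatives. Its adjusted p was 0.0828 with the cell line as a replicate block and 0.0967 and 0.127 under the rescalings, and it was not called without PEF5, PEF7, piPSC5, piPSC7 or piPSC8. With these and PTBP1 included and both pseudogenes left out, 33 of 40 tested genes were higher and 2 lower (30.3% and 21.5% of all tested genes), a count made after the values were seen. Under both rescalings 22 were higher, against 22.8% and 21.1% of all tested genes, and 2 lower, against 26.1% and 27.2%.

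Some values carry uncertainty from shared reads. How reads shared between genes were counted, and whether strand was used, is not given in the sources used here. In RefSeq 14 of the 38 genes overlap another protein-coding gene, among them HNRNPA1 (with NFE2 on the other strand), HNRNPA2B1 (with CBX3 and NFE2L3), SRSF4 (with EPB41, TMEM200B and MECR) and SRSF2 (with METTL23), and reads of overlapping genes cannot be told apart there. At TRA2A, 2 unnamed identifiers with fitted lengths of 87 and 213 bases (ENSSSCG00000031734 and ENSSSCG00000037955) are listed beside the named entry. They went from means of 12.6 and 0.454 FPKM in PEFs to 47.4 and 5.18 FPKM in piPSCs, log2 differences of 1.82 and 2.05 (adjusted p = 0.00227 and 0.00825), and were not counted among the 40 genes. A further 15 entries outside the rule were described in the table as hnRNP or SR proteins, several under the same protein name as a gene of the rule. Of these, 4 were abundant enough to test. They were SYNCRIP, which encodes hnRNP Q, at 1.08, and unnamed entries described as hnRNP K at 0.58, hnRNP A3 at 0.89 and hnRNP D-like at 1.10 on the log2 scale, with means of 55.3, 7.48, 1.4 and 9.49 FPKM. The levels of HNRNPK, HNRNPA3 and HNRNPDL are uncertain to the extent that reads were split with such entries. Values per gene cannot show which isoforms were made, and several SR genes have isoforms with a stop codon in a conserved extra exon that are removed by nonsense-mediated decay.

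The promoters were read because so many of the genes moved together. The search took protein-coding RefSeq genes on Sscrofa11.1, which held 35 of the 38 genes. HNRNPU, which RefSeq labels a long noncoding RNA, and the pseudogene entries named HNRNPAB and HNRNPF were left out. The 250 bases before each start were searched on both strands for 6 short motifs, with the same search over 19541 promoters. CCAAT and its reverse can share bases, as in CCAATTGG, and both were then counted. CCAAT, the letters of the CCAAT box, were in 13 of the 35 promoters (37.1%) and in 31.9% of all promoters. The GC box GGGCGG was in 22 (62.9%, against 45.9%), the E-box CACGTG in 4 (11.4%, against 6.39%), the ETS core CGGAAG in 6 (17.1%, against 15.8%), TATAAA in 3 (8.57%, against 9.76%) and the NRF1 core GCATGCGC in 1 (2.86%, against 2.29%). Among promoters of genes abundant enough to test, the shares were 32.5% for CCAAT, 59% for GGGCGG, 7.82% for CACGTG, 21.4% for CGGAAG, 6.23% for TATAAA and 3.14% for GCATGCGC. Of the 27 promoters whose gene was called higher in piPSCs, CCAAT was in 11 (40.7%), GGGCGG in 18 (66.7%) and CACGTG in 2 (7.41%). In the same 27, CGGAAG was in 5 (18.5%), TATAAA in 2 (7.41%) and GCATGCGC in 1 (3.7%). The 4 promoters with CACGTG were those of HNRNPDL, HNRNPH3, ESRP2, which was not tested, and MBNL2, which was lower. Median GC content was 60.4% for the 35 promoters and 61.6% for those of tested genes.

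The promoters of 4 genes are printed as the extremes of the comparison: HNRNPA1 with the largest rise, SRSF3 as the most abundant SR gene, and MBNL1 and MBNL2 as the genes that fell. Each is the 250 bases before the RefSeq start on Sscrofa11.1, 5′ to 3′ on the plus strand, from chr5:19484783-19485032, chr7:32289214-32289463, chr13:92491528-92491777 and chr11:66481673-66481922 in that order. The deposited entries start at chr5:19484613 for HNRNPA1, chr7:32289460 for SRSF3 and chr11:66481828 for MBNL2. The HNRNPA1 window therefore lies inside its deposited entry, and the SRSF3 and MBNL2 windows run into theirs. Capitals mark CCAAT on either strand (CCAAT or ATTGG) and CACGTG.
HNRNPA1: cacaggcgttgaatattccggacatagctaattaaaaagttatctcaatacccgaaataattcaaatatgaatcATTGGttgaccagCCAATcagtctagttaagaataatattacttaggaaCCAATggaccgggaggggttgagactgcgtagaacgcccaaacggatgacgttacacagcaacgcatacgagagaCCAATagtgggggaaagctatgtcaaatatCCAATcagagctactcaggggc
SRSF3: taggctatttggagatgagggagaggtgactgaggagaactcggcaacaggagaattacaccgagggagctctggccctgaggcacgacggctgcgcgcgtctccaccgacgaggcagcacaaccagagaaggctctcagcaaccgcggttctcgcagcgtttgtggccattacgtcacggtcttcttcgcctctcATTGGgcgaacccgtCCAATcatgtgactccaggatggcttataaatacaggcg
MBNL1: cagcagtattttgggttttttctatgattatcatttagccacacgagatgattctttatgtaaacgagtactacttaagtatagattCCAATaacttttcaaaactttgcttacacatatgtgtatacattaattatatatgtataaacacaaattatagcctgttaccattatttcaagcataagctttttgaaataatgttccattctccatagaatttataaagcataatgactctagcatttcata
MBNL2: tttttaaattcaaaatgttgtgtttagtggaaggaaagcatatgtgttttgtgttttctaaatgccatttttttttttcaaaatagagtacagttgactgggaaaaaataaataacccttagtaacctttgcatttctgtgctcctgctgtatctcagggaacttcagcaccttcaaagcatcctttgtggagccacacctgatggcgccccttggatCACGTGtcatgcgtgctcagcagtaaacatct

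HNRNPA1 held CCAAT 5 times, the most of the 35 promoters. Of the 19541 promoters, 47 (0.241%) held it as often or more, which is a share for single promoters and not for the highest of 35. SRSF3 held it 2 times, both near the start, with TATAAA further on. The MBNL1 promoter, with 1 CCAAT and TATAAA, had the lowest GC content of the 35 promoters, 27.6%. MBNL2, at 39.2% GC, held no CCAAT and 1 CACGTG, 32 bases before the start. These matches describe the letters in the window.

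The other genes of the splicing machinery were compared in lists by role. Of all tested genes, 30.3% were higher and 21.5% lower in the deposited values, 22.8% and 26.1% after rescaling to the median ratio, and 21.1% and 27.2% with equal sums; without line 8 the shares were 24.9% and 18.1%. The list of the Sm core and the U1 and U2 snRNPs, which recognise both ends of the intron, also held U2AF1, SF1 and PUF60. Of its 23 listed genes, 22 were tested and all 22 were higher in the deposited values (20 after rescaling to the median ratio), with a median log2 difference of 1.35. SNRPD1, an Sm core protein, had 19, 11.9 and 9.29 FPKM in PEF5, PEF7 and PEF8 and 69.2, 69.3 and 73.3 FPKM in the piPSCs. PEF5 was the highest PEF, the groups did not overlap, and the log2 difference of SNRPD1, 2.37 (SE 0.25, adjusted p = 0.000781), was about that of HNRNPA1. SNRPE was the most abundant of the list, with 66.4, 61 and 56.6 FPKM in the PEFs and 210, 264 and 245 FPKM in the piPSCs (1.94), and SF3B6 had the smallest difference called, 0.44 (adjusted p = 0.0341). SF3B6 was called in 6 of 16 alternatives, with an adjusted p of 0.0599 with the cell line as a replicate block and of 0.341 and 0.463 under the rescalings.

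Of 39 genes of the tri-snRNP, the Prp19 complex and the spliceosomal helicases, 28 were higher and 1 was lower, with a median of 0.78. LSM4 had the largest difference, 2.28, the most abundant gene LSM7 had 1.36, and SYF2 was lower at -0.47 (adjusted p = 0.0466, or 0.0784 with the replicate block; called in 8 of 16 alternatives). After rescaling to the median ratio 20 were higher and 1 lower, with equal sums 16 and 2, and without line 8 there were 18 higher and 0 lower.

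SR protein kinases put phosphates on the RS domains of SR proteins and so control their location and activity. Of 23 kinases and SR-related proteins, 16 were higher in the deposited values, 11 were higher after rescaling to the median ratio and 9 with equal sums, and the median was 0.79. Without PEF7 or without piPSC5 10 were higher, against 2903 of all 12471 and 2738 of all 12409 tested genes in that order. SRPK1 was the most abundant of the list, with means of 14.4 FPKM in PEFs and 54.5 FPKM in piPSCs, a log2 difference of 1.85. The largest difference was that of SRPK3, 2.71, from means of 0.552 to 9.16 FPKM, and the smallest called was that of CLK3, 0.52 (adjusted p = 0.0422). CLK3 was called in 4 of 16 alternatives, with an adjusted p of 0.0803 with the replicate block and of 0.178 and 0.255 after the rescalings. SRPK2, DYRK1A, SCAF11, CLK1, CLK4, TNPO3 and ACIN1 were not called.

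Of 13 genes of the exon junction complex and of nonsense-mediated decay, 8 were higher, with a median of 0.70 (6 after rescaling to the median ratio, 5 with equal sums and 5 without line 8). SMG1 had the largest difference, 1.39, the most abundant gene EIF4A3 had 1.07, and SMG9 had the smallest called, 0.66 (adjusted p = 0.0236). SMG1 was called in 14 and SMG9 in 8 of 16 alternatives, SMG9 with an adjusted p of 0.0568 with the replicate block and of 0.0716 and 0.107 after the rescalings. Among 39 tested genes of other broadly expressed splicing regulators, 31 were higher (23 after rescaling to the median ratio and 20 with equal sums), with a median of 0.85. MATR3 led with 1.78, and PCBP1, the most abundant, had the smallest difference called, 0.51 (adjusted p = 0.0191, but 0.255 and 0.286 after the rescalings; called in 11 of 16 alternatives). Of 17 regulators known from nerve and muscle 6 were tested, 2 higher (RBM38 at 2.55 and ELAVL4 at 1.11) and 1 lower (KHDRBS3 at -1.15), and after rescaling to the median ratio 1 was higher and 1 lower. Without PEF5, where KHDRBS3 was not tested, 2 were higher and 0 lower, and 1 was higher without PEF7, PEF8, piPSC5, piPSC8 or line 8. With 0.1 in place of 1 added to FPKM 4 were higher, and with voom or without piPSC7 3 were. In that order 3816 of 12428, 3752 of 12428 and 3497 of 12330 of all tested genes were higher. Without PEF7, PEF8, piPSC5 or piPSC8 the all-gene counts were 2903 of 12471, 3152 of 12261, 2738 of 12409 and 3595 of 12392. ELAVL4 (adjusted p = 0.0486) was called in 7 of 16 alternatives. RBM38, the most abundant of that list, had 2.97, 2.33 and 5.36 FPKM in PEF5, PEF7 and PEF8 and 28, 21.4 and 25.2 FPKM in the piPSCs.

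**Figure D5:**
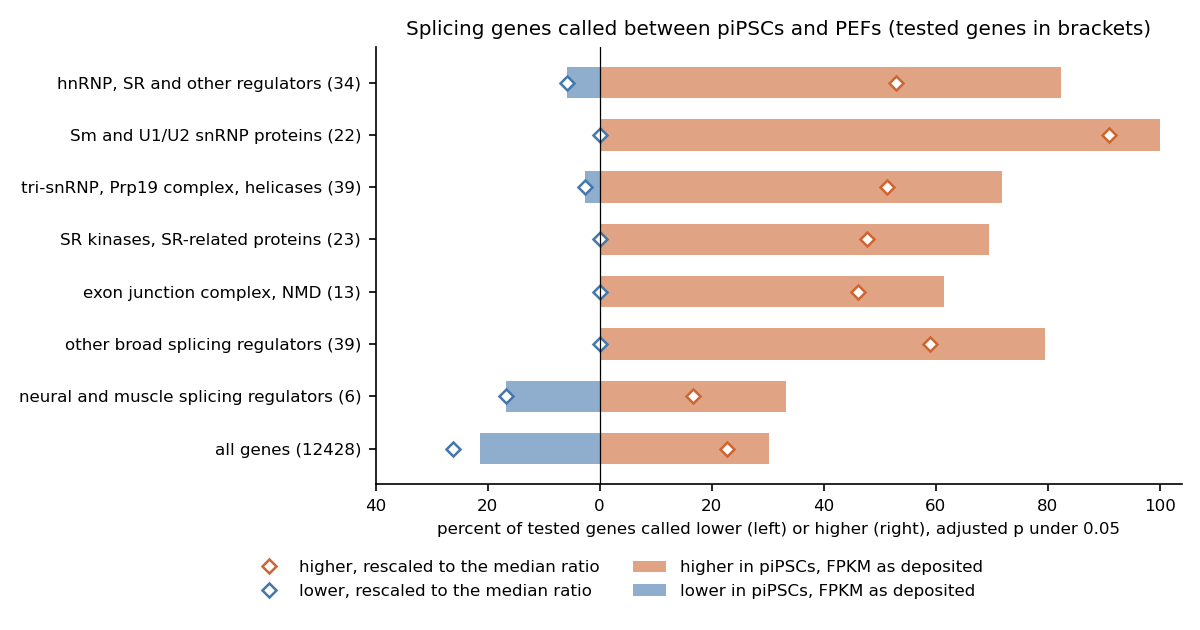
Percent of tested genes called higher (right, orange) or lower (left, blue) in piPSCs at a limma adjusted p under 0.05, for the 34 tested splicing regulators, 6 other lists of splicing genes and all 12428 tested genes, with the number tested in brackets. Bars give the deposited FPKM and diamonds the values rescaled to the median ratio: 28 against 18 of the 34 genes, and 22 against 20 of the 22 genes in the Sm and U1/U2 snRNP list, were higher. That list also holds U2AF1, SF1 and PUF60.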

How the data were processed

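Poly-A RNA libraries of 3 PEF and 3 piPSC lines were analysed from FPKM values per gene that the authors deposited. The submitters' processing notes name HISAT2 2.1.0, Bowtie2 2.2.3, HTSeq 0.6.0 and the build Sscrofa11.1. With a total fitted per library and a length per gene, the values of all 18007 genes (100%) lay within 0.0001 of a whole number of fragments. For the 1540 genes above 0 in 1 library a length that fits is easily found, so there the fragments are uncertain. This gave totals of 11010629 to 17836510 fragments per library.

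Groups were compared with limma 3.58.1 in R 4.3.3 (lmFit, eBayes with a trend) on log2(FPKM + 1), which understates the fold of low genes, for 12428 genes with a mean of at least 0.5 FPKM, two-sided, with Benjamini-Hochberg adjustment over all of them. The fits and the recovery of fragments were tested on simulated data. Positions and promoters came from RefSeq on Sscrofa11.1, read with pysam 0.24.0, and tables were made in Python 3.11.15 with numpy 2.4.6 and pandas 2.3.3.

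Each piPSC line came from the PEF line of its number, so libraries are paired by animal. Correlations between PEF and piPSC libraries, each taken relative to the mean of its group, were 0.092, 0.095 and 0.080 within lines and -0.121 to 0.055 between lines. The main test was unpaired, like the t test that the study names for its statistics in general; for RNA-seq the study set each piPSC line against its own PEF line. Alternatives were the cell line as a block, 0.1 added to FPKM in place of 1, all genes or those with a mean of at least 1 FPKM, rescaling to the median ratio or to a sum of 1000000, quantile normalization, no trend, voom on recovered fragments, and leaving out each library. Leaving out line 8 and using unnamed identifiers, in counts and in hnRNP shares, were added after seeing the data.

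Values in every library are given for the 4 genes with the highest and the 4 with the lowest log2 difference, the most abundant gene of each class, and ESRP1, ESRP2, PTBP1, PTBP2, RBFOX2, MBNL1, MBNL2, QKI, CELF1 and U2AF2. HNRNPK, SRSF9, SRSF12, HNRNPAB and HNRNPF were added after their values were seen, and of other splicing lists the highest, lowest and most abundant called genes are named. The genes and lists were chosen with earlier results of these data known.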

Additional observations from a re-analysis of the deposited data

How the results depend on the processing

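Over 16 alternatives, the direction of every called gene among the 34 was kept. The count of genes higher in piPSCs was 28 in the deposited values and 18 after rescaling to the median ratio or to equal sums, and at least 2-fold higher genes went from 17 to 10 under both, while quantile normalization gave 28 and 17. The log2 difference of RBFOX2 turned from 0.06 to -0.19 and -0.25 with the median ratio and equal sums, and without 1 library it ran from -0.08 to 0.29. That of QKI, -0.07, ran from -0.23 to 0.03 without 1 library. Leaving out a library gave 20 to 28 higher genes, the lowest without piPSC5, and 14 to 18 at least 2-fold higher. In these fits 2738 of 12409 (without piPSC5) to 3595 of 12392 (without piPSC8) of all tested genes were higher. From 2091 of 12409 (without piPSC5) to 2504 of 12330 (without piPSC7) were lower. The count of lower genes, and of at least 2-fold lower genes, ran from 1 to 2. MBNL2 was not called without PEF5, PEF7 or piPSC5, at log2 differences of -1.47, -1.37 and -1.54. It stayed called without PEF8, piPSC7 or piPSC8 (limma adjusted p = 0.039, 0.00918 and 0.0299), where 2 libraries also remained in a group. The cause of the shifts was not tested.

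With the cell line as a replicate block, 27 genes were higher and 2 lower (28% and 19.7% of all tested genes), 16 and 2 at least 2-fold (19.8% and 16.3%). In that paired fit SRSF4 and SRSF12 were no longer called and CELF1 was (0.71, limma adjusted p = 0.0294, against up to 0.227 over its alternatives), and the block changed no other call among the 34 genes. Of 88 values for counts and medians under the alternatives, 78 stayed within 1.5 times the reported count or within the spread between lines and 10 moved. Of 208 values of the 13 tested genes that the rule for named genes gives, 191 kept their direction and side of the threshold, 7 changed sign (QKI and RBFOX2), 7 lost the call (MBNL2 and U2AF2) and 3 gained it (CELF1). Over all 34 genes, 19 of the called genes were called in every alternative and 11 lost the call in at least 1. Of these, SRSF4 and SRSF12 were called in 6 of 16, HNRNPH2 in 9, SRSF6 and SRSF11 in 10, HNRNPLL and HNRNPR in 11, U2AF2 in 12, and HNRNPUL1, SRSF5 and MBNL2 in 13. ESRP1 and ESRP2 had at most 9 and 19 fragments in a library. At least 2-fold higher hnRNP genes went from 9 to 4 under both rescalings.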

Other observations

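Markers of other cell types were measured in the same libraries, and of all tested genes 30.3% were higher and 21.5% lower in piPSCs. Without 1 library, all tested genes held from 2738 of 12409 to 3595 of 12392 higher and from 2091 of 12409 to 2504 of 12330 lower. Of 4 tested trophoblast markers, 4 were lower in piPSCs, with sums of 7.57, 12.6 and 30.1 FPKM in PEF5, PEF7 and PEF8 and 1.46, 2.02 and 0.602 FPKM in the piPSCs. With the cell line as a replicate block, and without PEF7, PEF8, piPSC5, piPSC8 or line 8, 2 were called. Neural progenitor markers summed to 17.8, 6.31 and 7.12 FPKM in the PEFs and 69.3, 43.1 and 26.2 FPKM in the piPSCs, and 2 of 5 tested were higher, with NEUROG2 the most abundant at a mean of 10.9 FPKM; without PEF5, PEF7, PEF8 or piPSC5 none was called, and without piPSC8 or line 8 1 was. Endoderm markers summed to 2.48, 0.587 and 9.57 FPKM against 14.6, 3.94 and 5.87 FPKM, and 1 of 2 tested was higher. Blood markers summed to 12.9, 24.4 and 19.1 FPKM against 3.6, 3.46 and 4.21 FPKM, and 1 of 3 tested was lower. Their part in the levels of the splicing regulators was not tested.

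The regulators known from nerve and muscle were mostly near 0, as 11 of 17 had means under 0.5 FPKM. KHDRBS3, which encodes a STAR protein related to QKI, had 1.66, 1.15 and 1.1 FPKM in PEF5, PEF7 and PEF8 and 0.0649, 0 and 0.0296 FPKM in piPSC5, piPSC7 and piPSC8. All piPSC libraries lay near 0 and below all PEFs, and the log2 difference was -1.15 (SE 0.22, limma adjusted p = 0.00628), called in each of the 14 alternatives that kept it in the test. SRPK3, a muscle SR protein kinase, rose from a mean of 0.552 FPKM to 9.16 FPKM over n = 3 lines in each group.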
